A study of Mus musculus with 2 samples.

Results

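The basophil-like cells described here were 103 of the 3065 cells that passed the filters in a single-cell RNA library of mouse liver, or 3.36% (exact binomial 95% interval 2.75 to 4.06). They were chosen by a rule on counts of unique molecular identifiers (UMIs), each of which stands for 1 captured RNA molecule. A cell was taken when the UMIs of 6 genes, Mcpt8, Cd200r3, Ms4a2, Cpa3, Fcer1a and Cyp11a1, summed to at least 4 and came from at least 2 of the genes. Cells with fewer than 500 detected genes, or with more than 10% of their UMIs from mitochondrial genes, were left out. Because these 6 values chose the cells, their levels, and every ratio between these cells and the rest, are given as a description with no test.

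Basophils and mast cells are granulocytes that carry the high-affinity receptor for immunoglobulin E (IgE) and release histamine, proteases, lipid mediators and cytokines when that receptor is cross-linked. Basophils mature in the bone marrow and circulate as short-lived cells, and in the mouse they are marked by the granule protease Mcpt8 and the activating receptor-like protein Cd200r3. Mast cells mature in tissue, keep the stem cell factor receptor Kit on their surface, and store chymases and tryptases that basophils hold little of.

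The livers came from wild-type C57BL/6 mice of 7 to 10 weeks of age, and CD45-positive, lineage-negative cells were sorted by 2 gates, with 1 droplet library made from each. The LSM gate required Sca-1 and the myeloid integrin Mac-1, and the other gate CD122 together with CD49a. The number of mice behind a library is not stated in the labels, and with 1 library in a group no test across samples could be made, so intervals below cover counting error only.

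The rule found the cells in the LSM library alone. Among the 1248 cells of the CD122+CD49a+ library that passed the same filters, 0 met the rule, which allows a share of up to 0.24%. No UMI of any of the 6 genes was counted in those cells, whose median depth was 1464 UMIs. Both libraries held 3 barcodes in common, and 0 of these belonged to a basophil-like cell. A further 68 LSM barcodes failed the filters, and 0 of them carried enough UMIs of the 6 genes to meet the rule.

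The basophil-like cells were shallow. Their depth ran from 845 to 8450 UMIs with a median of 1981, and the quartiles were 1714 and 2272. The 2962 other LSM cells had a median of 5195 UMIs, from 711 to 17933. The basophil-like cells held a median of 771 detected genes against 1566 in the others. Thinned to 1000 UMIs per cell, which kept 102 basophil-like and 2946 other cells, they still held a median of 480.5 genes against 514. Mitochondrial UMIs made up a median of 0.848% in the basophil-like cells and 1.39% in the others, and ribosomal protein genes 25.3% and 30.1% of all UMIs. In all, the basophil-like cells contributed 227385 UMIs, 1.41% of those of the LSM cells. Levels are given below as CPM, the UMIs of a gene scaled to the total UMIs of its group. The part of depth in the ratios was not tested, and shares of cells are therefore given after thinning.

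**Figure D1:**
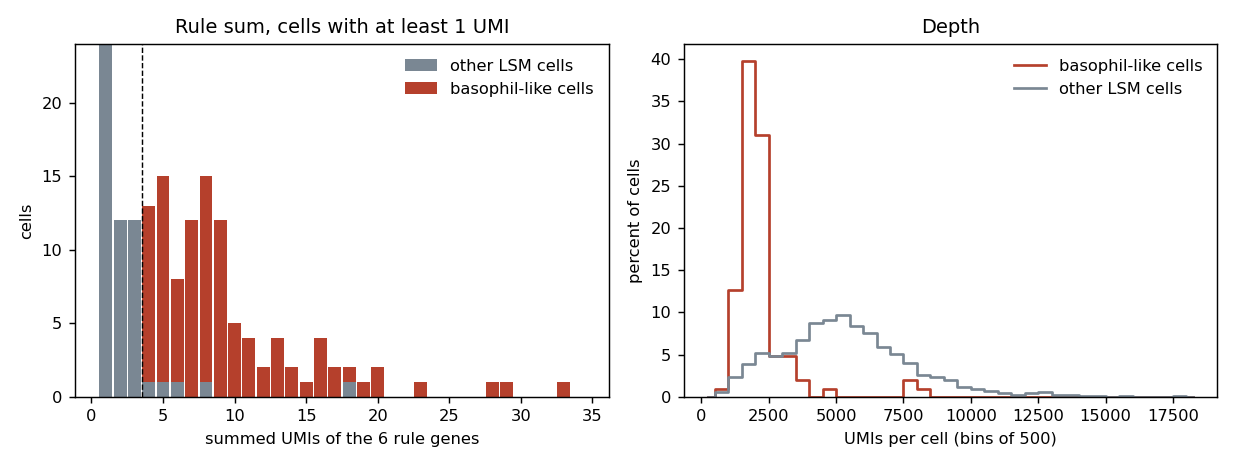
Left, number of LSM cells (y axis) by the summed UMIs of the 6 genes of the rule (x axis) for cells with at least 1 such UMI; basophil-like cells are stacked on other cells, and the dashed line marks the minimum of 4. Right, percent of cells in each group (y axis) by UMIs per cell in bins of 500 (x axis); the basophil-like cells peak near their median of 1981 UMIs and the other cells near 5195.

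The summed UMIs of the 6 genes had a median of 8 among the basophil-like cells and a maximum of 33. Of the 103 cells, 8 carried UMIs of 2 of the genes, 24 of 3, 39 of 4, 22 of 5, and 10 of 6. Most LSM cells were far from the limit, since 2909 had a sum of 0. Just inside the limit stood 12 basophil-like cells with a sum of 4, and just outside it 12 cells with a sum of 3. A further 5 cells reached 4 to 18 UMIs from Cpa3 alone and were not taken. Those 5 cells held between 3865 and 12266 UMIs each.

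All 6 genes of the rule were sparse in single cells. Cyp11a1, the enzyme that starts steroid synthesis from cholesterol, had a UMI in 89 of the 103 cells, with 0 to 6 UMIs per cell and a median of 2. Its level was 928 CPM against 1.44 CPM in the other LSM cells. Cpa3, a carboxypeptidase of basophil and mast cell granules, had a UMI in 83 cells, with 0 to 12 per cell and a median of 2, and stood at 985 CPM against 3.89. Cd200r3 had a UMI in 79 cells, with 0 to 8 per cell and a median of 2, and stood at 844 CPM against 1 CPM. These 3 genes were each seen in at least 76.7% of the cells.

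The other 3 genes of the rule were seen in fewer cells. Ms4a2, the beta chain of the IgE receptor, had a UMI in 68 cells, at most 8 in a cell, and stood at 563 CPM against 0.752. Fcer1a, the chain of that receptor that binds IgE, had a UMI in 55 cells, at most 7 in a cell, and stood at 479 CPM against 0.564. Mcpt8 had a UMI in 40 cells, at most 11 in a cell, and stood at 444 CPM against 0.188. In cells thinned to 1000 UMIs, Mcpt8 was seen in 25.5% of the basophil-like cells (17.4 to 35.1) and in 0.0339% of the others. No gene of the rule was seen in all of the cells, and each was at 0 in some of them.

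The 6 genes lie on 6 different chromosomes of GRCm38: Mcpt8 on the minus strand of chr14:56082166-56085273, Cd200r3 on the plus strand of chr16:44943678-44981380, Ms4a2 on the minus strand of chr19:11615523-11623719, Cpa3 on the minus strand of chr3:20215620-20242181, Fcer1a on the minus strand of chr1:173221284-173227214, and Cyp11a1 on the plus strand of chr9:58006411-58027023. Basophils and mast cells both depend on Gata2, a zinc finger transcription factor whose family binds GATA motifs. Gata2 was itself among the genes higher in these cells, so the letters GATAA were searched for on either strand (read as TTATC on the other). The search covered the 250 bases before each RefSeq start, which is not always the gene start given above. The letters stood before 4 of the 6 genes, namely Ms4a2, Cd200r3, Cpa3 and Fcer1a, and not in the windows of Cyp11a1 or Mcpt8. The windows of Cyp11a1 (chr9:57997774-57998023 and chr9:58014702-58014951) lie away from the start given above, and that of Mcpt8 (chr14:56085198-56085447) overlaps the gene. The bases just before the starts given for these genes were thus not all searched. Of 32851 windows of that length in RefSeq, 22.6% held them. In all 13 genes were searched, and of the 7 outside the rule only Prss34 and Il6 held the letters, while Hdc, Gata2, Il4, Csf1 and Ccl3 did not. A match is a description of the letters and not a binding site.

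The windows of the IgE receptor genes and Cpa3 show where the matches fall. The sequences are from RefSeq (GRCm38.p6), 5′ to 3′ on the strand of the gene and ending at the base before the start, with the matched letters in capitals. Positions are those of the first matched base, counted back from -1. In Ms4a2 (chr19:11623720-11623969, minus strand) the matches began at -224, -37 and -10. In Cpa3 (chr3:20242182-20242431, minus strand) the match began at -45, and in Fcer1a (chr1:173227230-173227479, minus strand) at -92.
Ms4a2: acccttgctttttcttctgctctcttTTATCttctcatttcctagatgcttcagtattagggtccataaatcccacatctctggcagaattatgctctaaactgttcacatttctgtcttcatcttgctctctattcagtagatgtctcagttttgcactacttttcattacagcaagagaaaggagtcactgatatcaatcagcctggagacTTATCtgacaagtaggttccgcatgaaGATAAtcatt
Cpa3: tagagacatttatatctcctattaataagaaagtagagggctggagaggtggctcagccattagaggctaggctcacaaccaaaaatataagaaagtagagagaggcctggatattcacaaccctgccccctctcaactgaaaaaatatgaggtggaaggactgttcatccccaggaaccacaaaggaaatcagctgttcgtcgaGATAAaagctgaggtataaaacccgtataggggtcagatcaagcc
Fcer1a: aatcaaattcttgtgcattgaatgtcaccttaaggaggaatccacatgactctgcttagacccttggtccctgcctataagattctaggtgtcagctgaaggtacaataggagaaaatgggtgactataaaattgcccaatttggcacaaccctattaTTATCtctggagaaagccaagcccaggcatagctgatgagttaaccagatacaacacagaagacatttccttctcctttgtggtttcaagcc

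Across all genes, 3734 entered the comparison with a mean of at least 25 CPM over the 2 groups. Of these, 635 (17.0%) were at least 2-fold higher in the basophil-like cells and 819 (21.9%) at least 2-fold lower, and the median log2 ratio was -0.15. Those shares are the background for the counts of each gene group. In the 14 gene groups together, 72 genes were higher and 31 lower. The 72 include the 6 genes of the rule, which were high by choice, so the joint counts are not set against the background. The choice of the cells used this contrast, and a scarce gene could enter only through the group in which it was high, so nothing further is read from the counts.

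Basophil genes prevailed over mast cell genes. The 8 listed basophil genes (Mcpt8, Cd200r3, Prss34, Itga2, Cyp11a1, Il4, Il3ra and Cebpa) summed to 689 UMIs or 3030 CPM in the basophil-like cells (exact Poisson interval 2808 to 3265), against 56.9 CPM in the other LSM cells. Mcpt8, Cd200r3 and Cyp11a1, which chose the cells, gave 504 of those UMIs, and the 5 basophil genes outside the rule summed to 185 UMIs or 814 CPM (701 to 939.7). The 13 listed mast cell genes summed to 3 UMIs or 13.2 CPM (2.72 to 38.6), against 42 CPM in the others. Of the mast cell genes, Kit had 2 UMIs and Mitf, a transcription factor of mast cells and melanocytes, had 1. The other 11 were at 0, namely the chymases and related proteases Cma1, Cma2, Mcpt1, Mcpt2, Mcpt4 and Mcpt9, the tryptases Tpsb2 and Tpsab1, the receptors Mrgprb1 and Mrgprb2, and Slc45a3. All of these but Slc45a3 were at 0 in the other LSM cells as well, where Kit made up 40.4 of the 42 CPM. A count of 0 allows up to 13.2 CPM in these cells. All 3 UMIs lay in the 4 deepest basophil-like cells, those above 4000 UMIs, and in the other 99 cells the mast cell sum was 0, which allows up to 15.1 CPM. The basophil sum stayed between 2486 and 3842 CPM and the mast cell sum between 0 and 62.1 CPM over the alternatives tried, all of which chose cells by the rule genes.

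The 5 basophil genes outside the rule stood at 54.3 CPM in the other LSM cells, a 15-fold ratio (12.7 to 17.6), and had a UMI in 76 of the 103 cells. Of their UMIs in these cells Il4 gave 68, Cebpa 51, Prss34 45, Il3ra 20 and Itga2 1. Cebpa and Il3ra were not particular to these cells, with a UMI in 14.2% and 10.5% of the other LSM cells. Il4, the type 2 cytokine interleukin-4, stood at 299 CPM against 2.01. Cebpa, a transcription factor of granulocyte precursors, stood at 224 CPM against 30.7, and Il3ra, the interleukin-3 receptor chain, at 88 CPM against 21.5. Prss34, the basophil protease mMCP-11, stood at 198 CPM against 0.0627, but from 11 cells only, and 44.4% of its UMIs came from 1 cell. Itga2, the CD49b integrin chain used as a surface marker of basophils, had 1 UMI.

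The genes that basophils and mast cells share were high. All 8 that entered the comparison were at least 2-fold higher than in the other LSM cells, beside 17.0% over all genes. Of the 8, Ms4a2, Cpa3 and Fcer1a are genes of the rule. Gata2, Hdc and Slc18a2 were scarce in the other LSM cells and entered only through the basophil-like cells, so nothing is read from the count. Hdc, the enzyme that makes histamine, stood at 879.6 CPM against 7.71, with UMIs in 74 cells and at most 20 in a cell. Gata2 stood at 449 CPM against 2.26, with UMIs in 61 cells and at most 10, a ratio of 199 (135 to 299). Without 25 other LSM cells that clustered with these, an alternative chosen after seeing the data, the ratio was 357 (219 to 609). Srgn, the granule proteoglycan serglycin, had a UMI in all 103 cells and stood at 3417 CPM against 934. Il1rl1, the interleukin-33 receptor, was scarce, with 9 UMIs in 9 cells, and Slc18a2, the vesicle amine transporter, had 12 UMIs in 10 cells. Kit, which separates mature mast cells from basophils, was seen in 0 of 102 cells thinned to 1000 UMIs (0 to 3.55%). In the other cells the share was 3.84% (3.17 to 4.59), so the intervals overlapped.

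**Figure D2:**
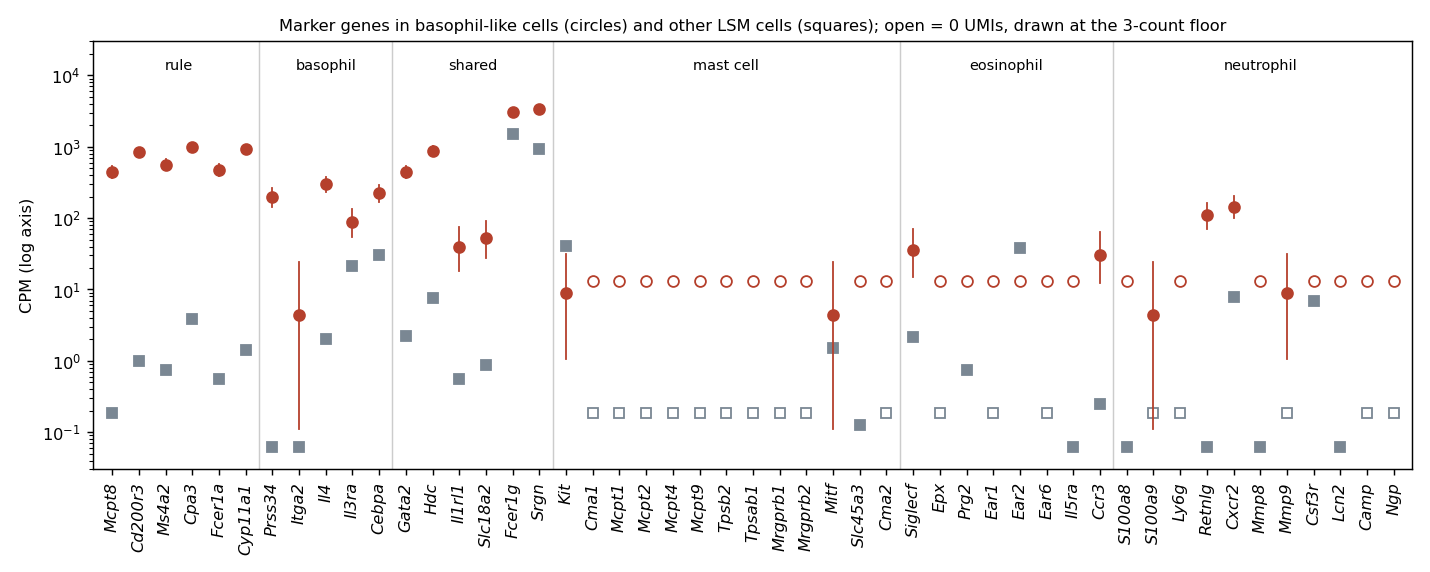
Level in CPM (y axis, log scale) of each listed gene (x axis), by list, pooled over the 103 basophil-like cells (circles, with exact Poisson 95% intervals) and the 2962 other LSM cells (squares). Open symbols stand for 0 UMIs and are drawn at the level of 3 counts, 13.2 CPM in the basophil-like cells and 0.188 CPM in the others; 11 of the 13 mast cell genes are open in the basophil-like cells.

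Some markers of other granulocytes were present. The 8 eosinophil genes summed to 66 CPM against 41.5. Siglecf had 8 UMIs, a ratio of 16.5 (6.6 to 36.3), and Ccr3, the eotaxin receptor that basophils also carry, had 7, a ratio of 123 (31.2 to 572), while Epx, Prg2, Ear1, Ear2, Ear6 and Il5ra were at 0. The 11 neutrophil genes summed to 268 CPM against 14.9, 18-fold higher (13.3 to 23.9), with a UMI in 24.3% of the cells against 5.47%. Cxcr2, a receptor for CXC chemokines, had 33 UMIs in 21 cells and stood at 145 CPM against 7.77. Retnlg had 25 UMIs, all in 1 cell, Mmp9 had 2 and S100a9 had 1. The remaining 7 neutrophil genes, S100a8 and Ly6g among them, were at 0.

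Markers of other cell types were scarce or lower for most lists, with exceptions among innate lymphoid, platelet, erythroid and endothelial genes. The 6 T cell genes had 1 UMI, the B and plasma cell genes 7, the Kupffer cell and macrophage genes 4 and the hepatocyte genes 0. Plasmacytoid dendritic cell genes summed to 123 CPM against 1431, conventional dendritic cell genes to 66 against 648, and monocyte genes to 259 against 1716. The 11 stem and progenitor genes summed to 202 CPM against 306, and to 45.2 CPM without the 4 deepest cells. Genes of natural killer cells and type 1 innate lymphoid cells summed to 92.4 CPM against 105, and those of type 2 innate lymphoid cells to 242 against 47.8, a 5.06-fold ratio (3.78 to 6.66), of which Il7r held 51 of 55 UMIs in 32 cells. Erythroid genes had 32 UMIs in 2 cells. Itga2b, the integrin chain of platelets and early progenitors, had 24 UMIs in 21 cells and stood at 106 CPM against 0.564, with the platelet genes Pf4, Ppbp, Gp9 and Gp1bb at 0. Pecam1 was 2.73-fold higher (1.35 to 4.95), with Stab2 and the other listed endothelial genes at 1 UMI or none.

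The antigen presentation genes of major histocompatibility complex (MHC) class II were low in these cells. The 7 genes summed to 1873 CPM against 27485 in the other LSM cells. All 6 that entered were at least 2-fold lower, beside 21.9% over all genes. Cd74, the invariant chain, was seen in 15.7% of thinned basophil-like cells (9.24 to 24.2) and in 78.9% of the others. Counting H2-Aa, H2-Ab1, H2-Eb1 and Cd74, 56 of the 103 cells had no UMI. The deepest cell, at 8450 UMIs, held 307 of the 401 UMIs of these 4 genes, and the cells above 4000 UMIs together held 344. Without those 4 cells the sum of the 7 genes was 312 CPM, 88.2-fold below the other LSM cells. The second deepest cell, at 7652 UMIs, had 9 UMIs of the myeloid precursor gene Prtn3 and 0 of Ccl3.

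Genes that led the ranking outside the rule and the lists were the growth factor binding protein Igfbp7, the muscle LIM protein Csrp3, the defensin Defb40, the glutamate receptor Grm6 and Fam174b. Csrp3 stood at 541 CPM against 1.19, with UMIs in 57 cells and at most 7 in a cell. Igfbp7 stood at 185 CPM against 0.376, in 30 cells, and Grm6 at 149.5 against 0.439, in 27 cells. Defb40 differed in that its 105 UMIs came from 17 cells. Without the 25 cells that clustered with them, Csrp3 and Grm6 had 1 UMI each in the other LSM cells and Igfbp7 had 2, which gives ratios of 8607 (1516 to 342681), 2379 (399 to 96699) and 1469 (382 to 12531). That alternative was chosen after seeing the data. The cluster was drawn from these same counts, with Csrp3 among its leading genes, so higher ratios were partly built in and their size rests on 1 or 2 UMIs. Ifitm1, an interferon-induced membrane protein which was picked with its values known, was seen in 101 of the 103 cells, with a median of 18 and at most 78 in a cell. Its level was 9090 CPM against 164, a 55.4-fold ratio (52.3 to 58.7).

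The 10 granule genes that entered had a median log2 ratio of 5.33 against -0.15 over all genes. Of the 10, 8 were higher and 2 lower, beside 17.0% higher and 21.9% lower over all genes. Mcpt8 and Cpa3 among them chose the cells, and of the 8 others 6 were higher and 2 lower, with a median of 3.55. Prss34, Hdc, Slc18a2 and Ctsg were scarce in the other LSM cells and entered only through the basophil-like cells, which raises that median. Besides the proteases named above, Ctsg, or cathepsin G, was 26.9-fold higher, but 61.1% of its 18 UMIs came from 1 cell. Serpinb1a, an inhibitor of granule proteases, was 5.11-fold higher (4.12 to 6.27). The lower pair were the lymphocyte granzyme Gzma, at 0 UMIs against 82.8 CPM and so at least 6.28-fold lower, and Grn, or progranulin, with 1 UMI against 107 CPM, a ratio of 0.0412 (0.00104 to 0.23).

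Genes of the IgE receptor and its signalling chain were mixed. Of 13 that entered, 6 were higher, 3 lower and 4 between, beside 17.0% higher and 21.9% lower over all genes. Ms4a2 and Fcer1a are genes of the rule and were high by choice, and of the other 11 genes 4 were higher, with a median log2 ratio of 0.15. Fcer1g, the signalling chain that the receptor shares with other Fc receptors, had a UMI in all 103 cells and stood at 3122 CPM against 1499. Among the adaptors, Lat2 was 6.83-fold higher (5.87 to 7.91) and Lat 5.06-fold higher (3.05 to 7.98), and the kinase Btk was 2.72-fold higher. The kinase Syk (17.6 CPM against 45.5), the phospholipase Plcg2 (ratio 0.305, 0.0628 to 0.896) and the exchange factor Vav1 (ratio 0.33, 0.0679 to 0.97) were lower, from 3 to 4 UMIs each. The kinase Lyn stood at 119 CPM against 201.

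Chemokines led the cytokine genes of these cells. The 23 listed cytokines and chemokines summed to 45038 CPM (44170 to 45919) against 3405 CPM in the other LSM cells. Of the 13 that entered 10 were higher and 2 lower, beside 17.0% higher and 21.9% lower over all genes. Il4, Il6, Csf1, Osm and Hgf were scarce in the other LSM cells and entered only through the basophil-like cells, so nothing is read from the count. Ccl4 had 0 to 167 UMIs per cell, a UMI in 99 cells, and 19962 CPM against 1323. Ccl3, its neighbour in function as an attractant of monocytes and lymphocytes, had 0 to 93 UMIs per cell, a UMI in 102 cells, and 16338 CPM against 557. Both overlapped with the other LSM cells at the level of single cells, since thinned shares there were 19.6% for Ccl3 and 27.6% for Ccl4. Ccl6 was 39.1-fold higher (36.2 to 42.1) and Ccl9 26.4-fold higher (22.8 to 30.4), with thinned shares of 90.2% and 67.6%.

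Several less abundant cytokines were scarce in the rest of the gate. Il4 had UMIs in 51 cells and at most 3 in a cell, a ratio of 149 (96.6 to 235). Il6, a pleiotropic inflammatory cytokine, had UMIs in 35 cells, at most 3 in a cell, and stood at 202 CPM against 0.815. Csf1, the growth factor of macrophages, had UMIs in 63 cells, at most 9, and stood at 642 CPM against 2.32. Osm, or oncostatin M, had UMIs in 61 cells, at most 11, and stood at 699 CPM against 7.27. Hgf, the hepatocyte growth factor, had UMIs in 48 cells, at most 9, and stood at 383 CPM against 5.14. In thinned cells the shares were 43.1% for Osm, 34.3% for Csf1, 30.4% for Hgf, 24.5% for Il4 and 14.7% for Il6, and each was under 1% in the other LSM cells. The other LSM cells include 25 cells that clustered with the basophil-like cells but missed the rule. Without them, an alternative chosen after seeing the data, the ratio was 297 (171 to 549) for Il4, 681 (399.6 to 1248) for Csf1, 536 (229 to 1537) for Il6, 116 for Osm and 93.7 for Hgf. The cluster was drawn from these same counts, with Csf1 among its leading genes, so a rise was partly built in.

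Type 2 cytokines other than Il4 were scarce. Il13 had 4 UMIs in 3 cells, and Il5, Il9, Il3 and Csf2 had 0 UMIs. Tnf, with 3 UMIs against 54.2 CPM, had a ratio of 0.243 (0.0501 to 0.713), and Ccl5, an attractant made by T and NK cells, had 1 UMI against 964 CPM in the other cells, a ratio of 0.00456 (0.000116 to 0.0254). Cxcl2, a neutrophil attractant, was 4.74-fold higher, but all of its 74 UMIs lay in 4 cells. Tgfb1 did not differ by 2-fold, at 233 CPM against 188.

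The minor cytokines were spread over the cells. Of Il4, Il6, Csf1, Osm and Hgf, 3 cells had a UMI of none, 15 of 1 gene, 32 of 2, 37 of 3, 12 of 4 and 4 of all 5. UMIs of Il4 and Il6 together were seen in 16 cells, of Il4 alone in 35, of Il6 alone in 19, and of neither in 33. For Il4 the variance over cells, scaled to depth, was 1 times that of Poisson counting. The same ratio was 1.34 for Il6, 2.52 for Csf1, 3.53 for Osm, 11.4 for Ccl3 and 21.9 for Ccl4. This ratio grows with the level of a gene, so it does not rank genes of different abundance by evenness.

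The window before Il6 (chr5:30012864-30013113, plus strand) is shown because it held, besides GATAA, the AP-1 motif TGACTCA (read as TGAGTCA on the other strand), the letters bound by Fos and Jun dimers. That motif stood in 4.46% of the 32851 windows, and among the 13 genes searched in Il6 only. The matches, in capitals, began at -249 for the AP-1 letters and at -55 for TTATC.
Il6: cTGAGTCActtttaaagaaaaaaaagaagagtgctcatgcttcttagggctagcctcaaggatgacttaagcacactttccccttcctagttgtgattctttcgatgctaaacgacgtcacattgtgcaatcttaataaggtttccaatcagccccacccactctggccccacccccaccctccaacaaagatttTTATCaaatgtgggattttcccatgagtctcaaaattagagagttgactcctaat

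**Figure D3:**
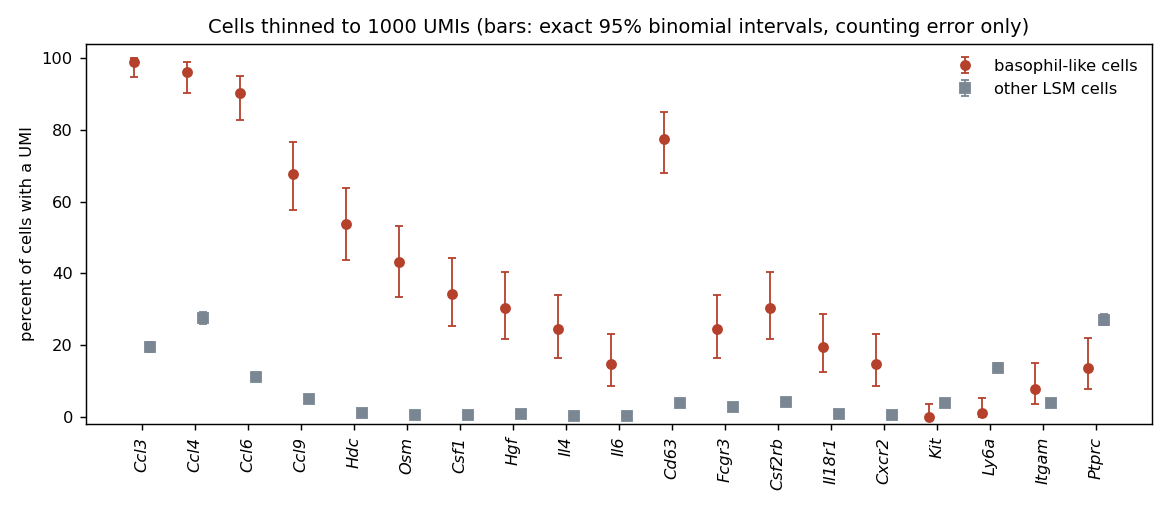
Percent of cells with a UMI (y axis) for selected genes (x axis) after every cell was thinned to 1000 UMIs, in 102 basophil-like cells (circles) and 2946 other LSM cells (squares); bars are exact 95% binomial intervals. Ccl3 reaches 99% of the basophil-like cells, and Kit and Ly6a lie below the other cells, with overlapping intervals for Kit.

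Immediate early genes, which are switched on within minutes of a stimulus, were high. The 18 genes summed to 44528 CPM against 10567, and 14 were higher and 4 lower, beside 17.0% higher and 21.9% lower over all genes. Jun had a UMI in 102 cells, with at most 49 in a cell, and stood at 7824 CPM against 1441. Fos stood at 5700 CPM against 1273 and Egr1 at 2560 against 191. Ier3, an inhibitor of cell death, was 18-fold higher (16.4 to 19.7) with UMIs in 80 cells. The lower genes were Atf3 (30.8 CPM against 311), Nr4a1 (2 UMIs, ratio 0.0874, 0.0106 to 0.316) and the heat shock genes Hspa1a (39.6 against 456) and Hspa1b (17.6 against 432), so the group did not move as a whole. Hspa1a and Hspa1b are near-identical copies whose UMIs may have been split between them. Without the 4 deepest cells the group summed to 48501 CPM.

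**Figure D4:**
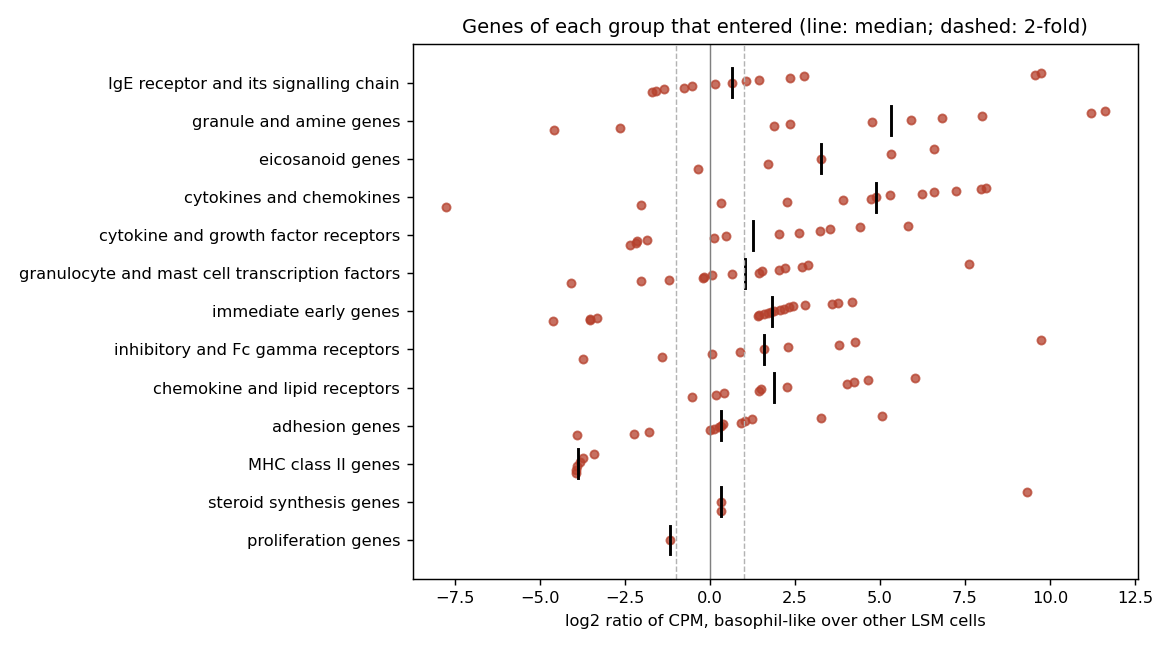
Each point is a gene of a listed group (y axis) that entered the comparison, at its log2 ratio of CPM in basophil-like over other LSM cells (x axis); black lines are group medians and dashed lines mark 2-fold. Granule genes, cytokines and eicosanoid genes have the highest medians, 5.33, 4.87 and 3.25, the first with the rule genes Mcpt8 and Cpa3 included, and MHC class II genes the lowest, -3.88. A scarce gene could enter only through the group in which it was high, which can raise such medians, so they are a description.

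Of the 10 listed eicosanoid genes 5 entered, and 4 of these, from the lipoxygenase and cyclooxygenase branches, were higher. Over all genes 17.0% were higher. Alox5, Alox15 and Ptgs2 were scarce in the other LSM cells and entered only through the basophil-like cells, so nothing is read from the count. Alox5, or 5-lipoxygenase, had 23 UMIs in 21 cells and stood at 101 CPM against 2.51, and its partner Alox5ap stood at 2098 CPM against 651. Alox15 had 15 UMIs in 15 cells, 66 CPM against 0.69, and the cyclooxygenase Ptgs2 had 13 UMIs in 11 cells, 57.2 CPM against 6.02. Lta4h, the leukotriene A4 hydrolase, did not differ by 2-fold, at 26.4 CPM against 34.2. Too scarce to enter, Tbxas1 had 1 UMI (ratio 0.192, 0.00484 to 1.07) and Pla2g4a had 3 UMIs (ratio 2.24, 0.454 to 6.75). The leukotriene C4 synthase Ltc4s, the cyclooxygenase Ptgs1 and the prostaglandin D2 synthase Hpgds were at 0 UMIs, which at this depth allows up to 13.2 CPM each.

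Of 12 cytokine and growth factor receptors that entered, 6 were higher, 4 lower and 2 between, beside 17.0% higher and 21.9% lower over all genes. Il3ra, Csf2rb2, Il18r1 and Il18rap were scarce in the other LSM cells and entered only through the basophil-like cells, so nothing is read from the count. The beta chains of the interleukin-3 receptor family, Csf2rb (339 CPM against 36.2) and Csf2rb2 (128 against 11), were high, and as near-identical genes they may have exchanged UMIs. The alpha chain Csf2ra stood at 22 CPM against 112. The interleukin-18 receptor chains Il18r1 and Il18rap were 56.7-fold (39.5 to 81) and 21.3-fold higher (13.3 to 33.1), with UMIs in 42 and 21 cells. Il7r was 6.06-fold higher. Csf1r, at 0 UMIs and so at least 4.46-fold lower, and Flt3, at 4 UMIs against 79.4 CPM, were low, as was Ifngr1 at 44 CPM against 160.3.

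Of 10 chemokine and lipid receptors that entered, 7 were higher and 0 lower, beside 17.0% higher and 21.9% lower over all genes. Ccr1, Cxcr2, Ptger3, C5ar1, C3ar1 and S1pr4 were scarce in the other LSM cells and entered only through the basophil-like cells. With no filter on level 10 were higher and 1 lower, and nothing is read from either count. The complement receptors C3ar1 and C5ar1 were 64.8-fold (35.6 to 117) and 24.8-fold higher (13.4 to 44), from 24 and 17 UMIs, and the prostaglandin E receptor Ptger3 was 16.4-fold higher from 14. Hrh4, a histamine receptor too scarce to enter, had 8 UMIs in 8 cells and 1 UMI in the others. Among inhibitory and Fc gamma receptors, Lilrb4a (439.8 CPM against 22.9) and Fcgr3 (255 against 18.5) were high. Fcgr3 was not particular to these cells, at 435 CPM in an LSM cluster led by C1qa and 251 CPM in that holding most basophil-like cells. Cd300a did not differ by 2-fold (176 against 169), and Clec12a, with 2 UMIs, was low (ratio 0.0741, 0.00896 to 0.268).

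Transcription factors followed no single direction. Of 14 that entered, 7 were higher, 3 lower and 4 between, beside 17.0% higher and 21.9% lower over all genes. Gata2, Ikzf2, Nfil3 and Stat5b were scarce in the other LSM cells and entered only through the basophil-like cells, so nothing is read from the count. Besides Gata2 and Cebpa, Ikzf2 (119 CPM against 18.2), Nfil3 (101 against 22.1), Runx1 (251 against 61.4), Cebpb (1240 against 427) and Stat5b (48.4 against 17.9) were higher. The lower genes were Irf8 (26.4 against 450.4), which drives dendritic cell and monocyte fates, Bhlhe40 (22 against 90.4) and Runx3 (39.6 against 91.8). Spi1, or PU.1, stood at 475 CPM against 455. Gata1 had 2 UMIs in the basophil-like cells and 0 in the others.

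Among adhesion and surface genes, the tetraspanin Cd63, which moves to the surface when granules fuse, was 33.2-fold higher (29.2 to 37.6), with a UMI in 99 cells. Cd9 was 9.52-fold higher, with a UMI in 97 cells. The integrin chain Itga4 was lower, at 2 UMIs against 133 CPM (ratio 0.0661, 0.008 to 0.239), and Cd24a stood at 35.2 CPM against 168. Of the 13 adhesion genes that entered, 4 were higher (30.8%), 3 lower and 6 between, beside 17.0% higher and 21.9% lower over all genes. In the steroid group only the rule gene Cyp11a1 was higher of 3 that entered, with Tspo and Fdx1 between, while the cholesterol carrier Star and the next enzyme Hsd3b1 did not enter. The 12 proliferation genes had 13 UMIs, 57.2 CPM against 289.

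Of 3 genes of sorted proteins that entered, Ly6a was lower and Itgam and Ptprc lay between. Ly6a, which encodes Sca-1, had 2 UMIs in 1 cell, against 196 CPM in the other LSM cells, a ratio of 0.0448 (0.00542 to 0.162). In thinned cells it was seen in 0.98% of the basophil-like cells (0.0248 to 5.34) and 13.7% of the others. That 1 cell was among the 4 deepest and fell in another cluster than the rest. Itgam, which encodes the Mac-1 chain CD11b, had 15 UMIs, 66 CPM against 35.4, a ratio of 1.86 (1.04 to 3.1), with thinned shares of 7.84% (3.45 to 14.9) and 3.97%. Ptprc, which encodes CD45, had thinned shares of 13.7% (7.71 to 22.0) and 27.1%. Protein on the surface was not measured in these files, so RNA and the gate cannot be compared cell by cell.

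Clustering of the LSM cells gathered the basophil-like cells in 1 place. Of the 103 cells, 101 fell in cluster 9, which held 126 cells and was led by Cyp11a1, Cd200r3, Csrp3, Csf1 and Ms4a2. The other 2 cells were the second and the third deepest, at 7652 and 7541 UMIs with 5 and 6 UMIs of the rule genes, and fell in clusters 13 and 2. The leading genes of cluster 13 included Prtn3 and Angpt1, and cluster 2 was led by Wfdc18, Prss2 and Nrgn. Clustering used the same counts as the rule, so this is a description.

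The 25 cells of cluster 9 that missed the rule resembled the cells that met it. They were shallower, with a median of 1548 UMIs, and 23 of them had 1 to 3 UMIs of the rule genes and 2 had none. All 25 had a UMI of Ccl3 (22478 CPM) and of Ifitm1 (9385 CPM), 24 of Ccl6, 24 of Cd63, 19 of Hdc and 12 of Gata2. Il4 was seen in 13 and Ly6a in 0. With the rule applied to cells thinned to 1000 UMIs, 60 cells were taken, so the count of 103 depends on depth. Immediate early genes summed to 48305 CPM in cluster 9 and to 16069 CPM in the next cluster, number 4. Ccl3 stood at 18202 CPM in cluster 9 and at 2327 CPM in the next, number 2, and Ly6a at 0 in cluster 9 and at 789.8 CPM in cluster 7, where it was highest.

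**Figure D5:**
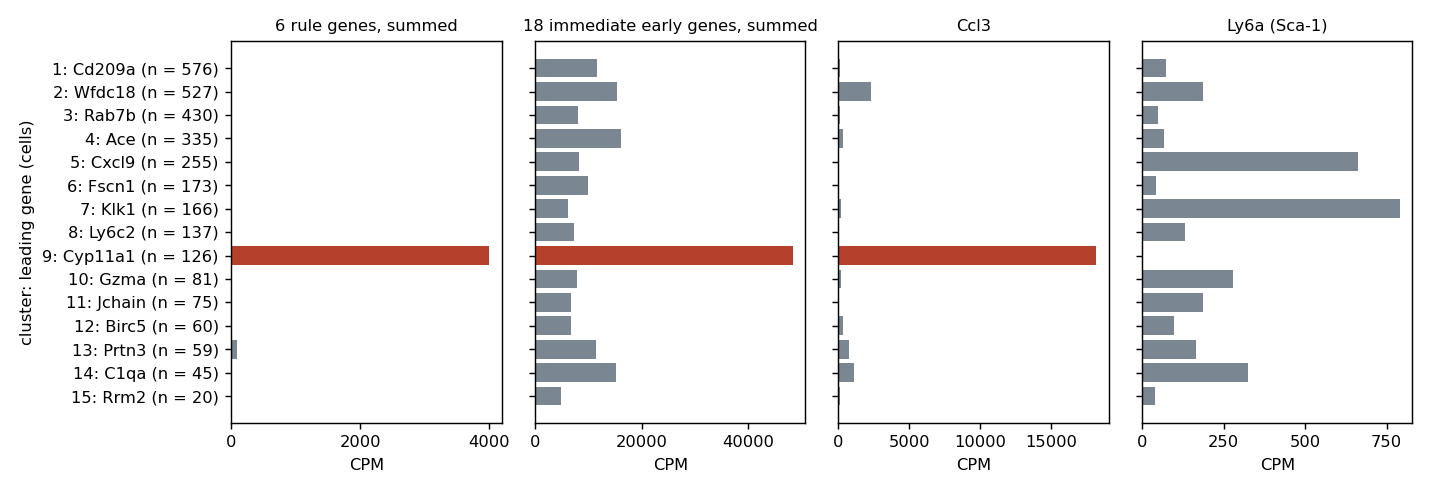
Level in CPM (x axes, linear, from 0) in each of 15 clusters of LSM cells (y axis, named by leading gene with its number of cells) of the 6 rule genes summed, 18 immediate early genes summed, Ccl3 and Ly6a. Cluster 9, in red, holds 101 of the 103 basophil-like cells and has the longest bars of the first 3 panels and no Ly6a.

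Cells with and without a UMI of Mcpt8 were set side by side, as a description. Mcpt8 is a gene of the rule, so the cells without it reached the minimum sum through the other genes of the rule. The cells come from 1 library and are not replicates. The 40 cells with a Mcpt8 UMI had a median depth of 2134 UMIs and the 63 without had 1880. Between them Ccl3 (ratio 1.01, 0.941 to 1.07), Il4 (1.14, 0.683 to 1.88) and Csf1 (1.09, 0.774 to 1.53) had intervals that hold 1, and Ccl4 stood at a ratio of 0.9 (0.848 to 0.955). Prss34 was 10.9-fold higher with Mcpt8 (4.29 to 35.3) and 5.61-fold (2.04 to 19.1) without the 1 cell that held 20 of its 45 UMIs. Cells with Mcpt8 also held more of Csrp3 (2.05-fold, 1.41 to 3.01), Ier3 (1.91-fold, 1.62 to 2.25), Gata2 (1.65-fold, 1.10 to 2.50) and Hdc (1.59-fold, 1.20 to 2.13). They held less of Ptma, prothymosin alpha (0.571, 0.472 to 0.687), and of the nuclear RNA Malat1 (0.77, 0.73 to 0.813). In all, 20 genes were compared, not all of them named here. The 20 genes were chosen after the data were seen, and their UMIs clump within cells, so the intervals are too narrow.

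The 15 genes with the lowest ratios were led by Ccl5 and Jchain, and Hspa1b was among them. Jchain, the joining chain of antibodies, had 6 UMIs against 3125 CPM, 118-fold lower, and Mzb1, another plasma cell gene, had 1 against 284 CPM (ratio 0.0155, 0.000392 to 0.0862). Cxcl9 had 0 UMIs against 328 CPM, at least 24.8-fold lower. Single UMIs were counted of Id3, Bcl11a, Naaa, Tnni2, Plekho1, Irf5, Klf4 and Myadm, which stood between 108 and 260.3 CPM in the other cells. Bcl2a1b and Bcl2a1d, also at 1 UMI each, are near-identical copies whose counts are uncertain. Plasma cell genes reach such levels in the other cells from few of them, since Jchain had a UMI in 9.08% of those.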

How the data were processed

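The values are raw UMI counts per gene and barcode, deposited by the authors as 1 sparse matrix per library. Per the file headers, version 3.0.1 of the matrix software wrote them. The submitters' processing notes list STAR, Seurat 2.3.0 and the build GRCm38 but not which step each served. The members and gene lists were chosen with earlier results of these data known.

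Counts were summed over the 103 chosen cells and over the other 2962 LSM cells and scaled to each group's total. A gene entered with a mean of at least 25 CPM over both groups and was called at 2-fold. Ratios carry exact conditional binomial 95% intervals. A count of 0 was set at 3 counts, 13.2 CPM in the basophil-like cells, where the exact interval of a 0 reaches 16.2 CPM. Bounds given for a 0 use the 3 counts. Genes named are the rule genes, members of the 34 lists (300 of 302 genes had a row) and the 15 highest and 15 lowest ratios among genes with at least 100 CPM and 20 UMIs in the higher group, leaving out mitochondrial, ribosomal, predicted and antigen receptor genes.

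Cells were clustered in scanpy 1.11.5 (2000 variable genes, 20 components, 15 neighbours, Leiden resolution 0.6). Scrublet marked 10 barcodes (0.319%), too few to be trusted, so doublets were kept, and leaving out the 79 highest scores, 3 of them members, was an alternative. Positions come from GENCODE M21, which held 98.7% of gene identifiers. All 13 genes looked up had a RefSeq promoter. The ratio procedure was tested on simulated data.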

Additional observations from a re-analysis of the deposited data

How the results depend on the processing

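Of 83 alternative values of the results that answer a comparison, 63 stayed close to the main value and 20 moved. The number and share of basophil-like cells moved to 58 (1.89%) with a summed count of at least 8, to 60 (1.97%) with the rule on cells thinned to 1000 UMIs, and to 10 (0.378%) when cells under 1000 genes or over 5% mitochondrial UMIs were left out. Under that last filter 529 genes were lower, the basophil sum was 2486 CPM, the mast cell sum 62.1 CPM and the log2 ratio of Nfkbiz turned to -1.61. Without a filter on CPM 1775 genes were higher, 1863 lower and 48 listed genes lower, and at a mean of 100 CPM these were 204, 223 and 14, since other numbers of genes entered. With members of a summed count of at least 8 the basophil sum was 3842 CPM, the part outside the rule 964 CPM, and the log2 ratio of Angpt1 turned to -0.10; the cause was not tested. Without the 4 members above 4000 UMIs, an alternative added after seeing the data, the basophil sum was 3347 CPM and the mast cell sum 0. The thinned share of Ly6a was 0 at 1500 UMIs. The basophil sum was above the mast cell sum under each alternative run. Each alternative chose its cells by rule genes that include Mcpt8, Cd200r3 and Cyp11a1 of the basophil list and none of the mast cell list. The size of the basophil sum was thus partly fixed by the choice. Of 139 named genes with a call, 9 had no value under the 1000-gene filter and 106 of the other 130 stayed at least 2-fold in the same direction. With per-cell CPM 133 of the 139 did, 135 of 138 with a value did when members had a summed count of at least 8, and under the remaining alternatives of the gene comparison all 139 did. The other changes of the rule were run for the number and share of cells only. Leaving out the 25 cells of the basophil-like cluster that missed the rule raised ratios, by 5.99-fold for Ms4a2, 2.99-fold for Igfbp7, 6.98-fold for Grm6, 2-fold for Il4, 2.46-fold for Csf1, 2.16-fold for Il6, 1.8-fold for Gata2 and 19-fold for Csrp3. The cluster was drawn from the same counts, so such a rise was partly built in. No paired analysis was possible because each group is 1 library. Depth limits what a 0 can show, since 3 counts are 13.2 CPM in the basophil-like cells and 0.188 CPM in the others.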
